A study of Drosophila melanogaster with 3 samples.

Results

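Weak promoter regions are described here: stretches near the starts of protein-coding genes where ChIP-seq of acj6-GFP, the sequencing of DNA recovered with a tagged protein, gave a signal too low for the list of reproducible peaks. They were chosen by a rule from the pooled list of 30000 regions in dm6 coordinates. A region was kept when it overlapped no peak of the deposited IDR list (irreproducible discovery rate, a ranking of peaks by how well replicates repeat them) by 1 bp or more, and when its summit lay within 500 bp of a protein-coding transcription start site (TSS). Of the 30000 regions 20504 overlapped no IDR peak, and 3237 of these were near a TSS. The other 17267 are called weak distal regions. The same TSS rule gave 2455 IDR promoter peaks out of 8248 IDR peaks.

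The 3 samples are biological replicates of 1 group of Drosophila melanogaster, whole white prepupae with males and females pooled, from a transgenic line that makes acj6 fused to GFP at its C-terminus. The chromatin was sheared by sonication and recovered with an antibody to GFP. The age of the animals is given as unknown, and separate rearing of the replicates is not stated, so SDs over replicates may measure technical spread. P-values over regions do not measure spread between replicates. Because whole animals were used, a promoter bound in a few cells and one bound weakly in many cells cannot be told apart. A weak promoter region need not be bound at all, because the pooled list is described as holding background beside peaks. No untagged sample and no second group was compared, and the lists hold no read counts, so depth is unknown.

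Acj6 belongs to the POU-homeodomain family of transcription factors and is known for choosing odorant receptor genes and wiring partners in subsets of olfactory neurons. A promoter is the stretch of DNA at which RNA polymerase II starts a transcript. In flies, promoters of genes used in every cell often carry the DRE and motif 1, while the TATA box, the initiator and GAGA repeats are commoner at developmentally regulated genes. The white prepupa is the stage at which an ecdysone pulse ends larval life.

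The sequences of 7 members show what these regions look like. They are the 201 bases around the summit, in dm6 coordinates, written 5′ to 3′ along the strand of the gene, from the Release 6 genome sequence of NCBI. Capitals mark matches, on either strand, to motifs whose share differed from that of IDR promoter peaks. CG7168, KrT95D and Boh1 are shown as the 3 members of highest signal among the 1139 members considered for display, which lie on 5 of the 6 arms and have no annotated exon in the window. CG7168 (chr3R:18226139-18226339, minus strand) and KrT95D (chr3R:24006875-24007075, minus strand) have no such match. The letters of the DRE in CG7168 and of the GAGA repeat in KrT95D are unmarked, because the shares of these motifs did not pass. Boh1 (chr3R:27919485-27919685, minus strand) has 2 matches to the letters of the TATA box and 1 to those of the homeodomain core. The search did not weigh strand or distance from the TSS, so a match need not be a working element.
CG7168: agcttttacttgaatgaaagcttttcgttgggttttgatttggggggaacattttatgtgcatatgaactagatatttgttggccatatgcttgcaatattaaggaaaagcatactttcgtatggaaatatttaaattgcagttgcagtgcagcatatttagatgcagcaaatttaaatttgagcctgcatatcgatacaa
KrT95D: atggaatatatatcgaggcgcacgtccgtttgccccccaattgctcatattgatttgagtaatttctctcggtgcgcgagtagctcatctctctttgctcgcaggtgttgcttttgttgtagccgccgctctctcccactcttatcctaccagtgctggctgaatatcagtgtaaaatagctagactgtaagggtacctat
Boh1: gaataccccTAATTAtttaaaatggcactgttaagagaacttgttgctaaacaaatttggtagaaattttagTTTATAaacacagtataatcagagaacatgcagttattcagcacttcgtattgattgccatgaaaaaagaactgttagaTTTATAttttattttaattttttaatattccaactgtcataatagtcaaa

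The other 4 are those of highest signal, among the same 1139 members, that match motif 7, the E-box, the initiator and the CA repeat. In each, only the letters of that motif are in capitals. They lie at sfl (chr3L:6495464-6495664, plus strand), which encodes a heparan sulfate sulfotransferase, at unc-45 (chr3R:8033086-8033286, plus strand), a myosin chaperone, at sba (chr3R:23922583-23922783, minus strand) and at pum (chr3R:9237259-9237459, minus strand), an RNA-binding translational repressor. The summits at sfl and unc-45 lay 116 and 115 bp upstream of the TSS, and those at sba and pum 290 and 323 bp downstream of it.
sfl: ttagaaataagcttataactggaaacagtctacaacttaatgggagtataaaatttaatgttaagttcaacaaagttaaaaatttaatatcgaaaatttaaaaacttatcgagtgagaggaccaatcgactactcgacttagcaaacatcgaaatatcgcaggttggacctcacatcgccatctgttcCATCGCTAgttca
unc-45: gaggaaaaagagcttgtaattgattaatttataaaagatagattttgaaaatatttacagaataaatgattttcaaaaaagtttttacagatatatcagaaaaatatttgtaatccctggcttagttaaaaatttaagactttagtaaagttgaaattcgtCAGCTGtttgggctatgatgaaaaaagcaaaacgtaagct
sba: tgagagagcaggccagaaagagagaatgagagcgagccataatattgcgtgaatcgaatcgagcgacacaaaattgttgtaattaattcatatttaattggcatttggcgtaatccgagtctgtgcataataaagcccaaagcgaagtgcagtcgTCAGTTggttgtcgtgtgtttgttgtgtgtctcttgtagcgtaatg
pum: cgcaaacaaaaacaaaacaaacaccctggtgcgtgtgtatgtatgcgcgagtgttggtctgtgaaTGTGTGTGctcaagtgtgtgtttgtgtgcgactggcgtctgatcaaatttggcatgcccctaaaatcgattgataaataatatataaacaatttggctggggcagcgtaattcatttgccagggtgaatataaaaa

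The border between members and IDR promoter peaks was a rank of signal. The signal is the value that the authors' peak caller gave each region, and the 8248 IDR peaks were exactly the 8248 strongest regions of the pooled list, with a lowest signal of 94.2. Member signals therefore began at 94.1 and ran down to 24.8, with a median of 41.9. The median of IDR promoter peaks was 213. These values chose the members and are given without a test.

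The strongest members lay at d4, which encodes a PHD finger protein, at spirit, a serine protease of the Toll pathway, at CG7168, at Mp, a collagen, at ATPsynbeta, the beta subunit of ATP synthase, and at KrT95D, with signals from 94.1 down to 93.8. The weakest IDR promoter peaks, at scyl, CG17105, CG33080, rtv, Svil and Shrm, had signals from 94.4 to 94.2. The sets thus met at nearly the same signal. The 6 members were each covered in 3 replicate lists, and of the 6 peaks 4 were covered in 3 and 2 in 2. Boh1, Lasp, an actin-binding LIM protein, sns, an adhesion receptor of myoblast fusion, and CG43120 completed the 10 strongest, at signals down to 93.3. The 4 weakest members, at ttk, a zinc finger repressor, ds, a protocadherin, Kank and Cht6, a chitinase, had signals of 24.8.

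The authors' q-values show how weak most members were. A q of 0.1 or lower was reached by 1130 of 3237 members (34.9%), 0.01 by 378 (11.7%) and 0.001 by 77 (2.38%). The 2455 IDR promoter peaks passed each of these values. Most members thus had a q above 0.1, in a list that is described as holding background beside peaks. Each member was 420 bp wide with its summit at the centre, and no interval occurred more than once. The nearest IDR peak lay a median of 3892 bp away (quartiles 1171 and 11577), and within 1000 bp for 704 members (21.7%). A start of a noncoding RNA gene lay within 500 bp of the summit at 140 members (4.32%) and at 4.48% of IDR promoter peaks.

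Most members were found again in at least 2 of the 3 replicate lists of 30000 regions. A member counted as covered when a single replicate region spanned at least 50% of its length. Of 3237 members 1125 were covered in 3 lists (34.8%, exact 95% interval 33.1 to 36.4), 1248 in 2 (38.6%), 767 in 1 (23.7%) and 97 in none (3.00%). Of the IDR promoter peaks 90.02% were covered in 3 lists, and of the weak distal regions 30.6%. Intervals cover counting error only. The pooled list was made from the same replicates, so coverage is a description and was not tested.

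**Figure D1:**
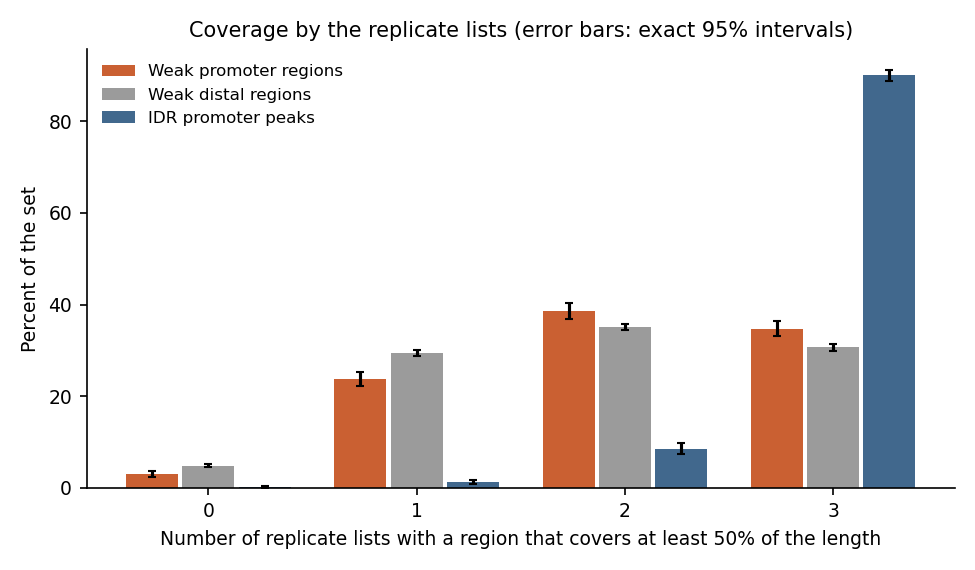
Percent of 3237 weak promoter regions, 17267 weak distal regions and 2455 IDR promoter peaks (y axis) by the number of replicate lists with a covering region (x axis). Error bars are exact 95% intervals. Weak promoter regions spread over 1, 2 and 3 lists, with 38.6% in 2, while 90.02% of IDR promoter peaks fall in 3.

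Replicate 2 covered fewer members than the others, 2027 against 2305 in replicate 1 and 2306 in replicate 3. The median rank of the covering regions was 14375, 14940 and 15332 in replicates 1, 2 and 3. Few members reached the rank range of the IDR list in a replicate: 218 lay among the 8248 strongest regions of replicate 1, 138 of replicate 2 and 122 of replicate 3. In 368 cases this held in 1 replicate, in 52 in 2 and in 2 cases in 3.

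Those 2 were at chif, which encodes a Dbf4-related regulator of DNA replication, and Ccs, the copper chaperone of superoxide dismutase. The chif region had pooled rank 14718 with a signal of 50.1, yet ranks 1260, 1364 and 2256 in replicates 1, 2 and 3. The Ccs region had pooled rank 12878 and ranks 7324, 5378 and 8209. Both lay close to an IDR peak, 213 bp away at chif and 414 bp at Ccs. The covering replicate regions at these members overlapped no IDR peak, and over the members as a whole this happened for 1 covering region, in replicate 2. The part of the neighbouring peaks in these ranks was not tested.

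The next members by their worst rank lay at IP3K2, an inositol trisphosphate kinase, CG4239, cib and tsr, both actin regulators, how, an RNA-binding protein, and Pi3K92E, the catalytic subunit of phosphoinositide 3-kinase. Their worst ranks ran from 8792 at IP3K2 to 9588 at Pi3K92E. The 3 ranks at IP3K2 were 8792, 8276 and 8568, so this member stood just past the border in each replicate. Other members varied widely. Smg5, a factor of nonsense-mediated decay, had pooled rank 27619 but replicate ranks 12996, 2106 and 2174, a ratio of worst to best of 6.17. InR, the insulin receptor, had ranks 26485, 8672 and 4651, CG10543 had 4092, 8037 and 22629, CG2003 had 19717, 24531 and 5077, and CG12480 had 19464, 6282 and 29865. The replicate that stood apart thus differed from member to member. The nearest IDR peak lay 414 bp away at Smg5, 658 bp at InR, 264 bp at CG10543, 456 bp at CG2003 and 15096 bp at CG12480. The part of these neighbouring peaks in the variation was not tested.

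Summits of the weak promoter regions sat on both sides of the TSS, whereas IDR promoter peaks sat mostly upstream. Of 3237 members 2076 lay upstream (64.1%, exact 95% interval 62.5 to 65.8) against 2051 of 2455 IDR promoter peaks (83.5%, 82.0 to 85.0). The difference was −19.4 percentage points, with p = 2.03e-61 by a two-sided Fisher's exact test. Regions of a list are not independent replicates, so p-values over regions describe these lists and not variation between animals. Sets rebuilt by the same rule from each replicate list gave 62.8%, 65.0% and 64.3% for the weak regions (64.0% ± 1.13, SD, n = 3) and 81.9%, 83.2% and 81.8% for regions that overlap an IDR peak (82.3% ± 0.796). The groups of 3 values did not overlap, and 3 pairs of values cannot give a two-sided exact p below 0.25.

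The median summit lay 75 bp upstream of the TSS in members (quartiles −244 and 81) and 134 bp upstream in IDR promoter peaks. The window from 250 to 1 bp upstream held 39.9% of members and 60.3% of IDR promoter peaks. The 250 bp downstream of the TSS held 22.7% of members and 10.9% of peaks, and the next 250 bp held 12.97% and 5.54%. Of all bases within 500 bp of a protein-coding TSS 44.97% are upstream of the nearest TSS, so members were still more often upstream than these bases are.

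**Figure D2:**
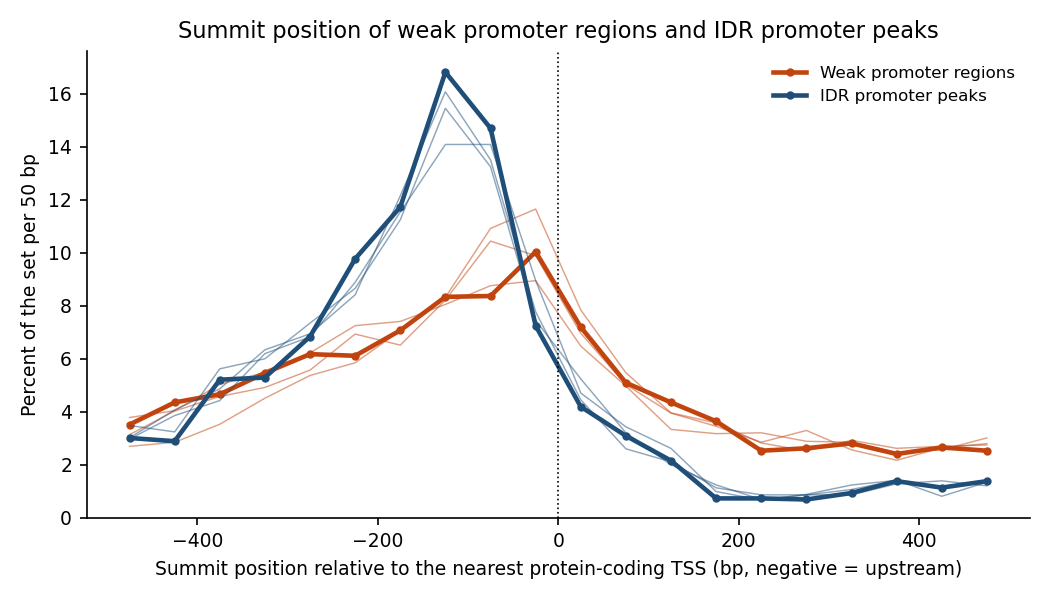
Percent of each set per 50 bp (y axis) by summit position relative to the nearest protein-coding TSS (x axis, bp, negative values upstream). Thick lines are the 3237 weak promoter regions and 2455 IDR promoter peaks, and thin lines the sets rebuilt from each of 3 replicate lists. IDR promoter peaks crowd upstream, with a median of −134 bp, while weak promoter regions are flatter, with a median of −75 bp.

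The side of the TSS went with the signal rank. Rank classes were set after the data were seen and are given without a test. Near the border the members resembled the last IDR peaks: 75.5% of the 323 members ranked 8249 to 10000 were upstream, and 80.6% of the 509 IDR promoter peaks ranked 6001 to 8248. Of the 562 members ranked 25001 to 30000, 54.8% were upstream. The replicate lists, ranked by their own signal, gave 68.5%, 77.4% and 71.9% in the former class of members and 56.3%, 54.0% and 57.0% in the latter. The share of regions near a TSS followed the same order, from 45.5% in the strongest 1000 regions to 22.6% at the end of the IDR list, 20.5% just past it and 11.6% at the end of the pooled list. That last value is close to the 11.5% of bases on the 6 arms that lie within 500 bp of a protein-coding TSS.

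**Figure D3:**
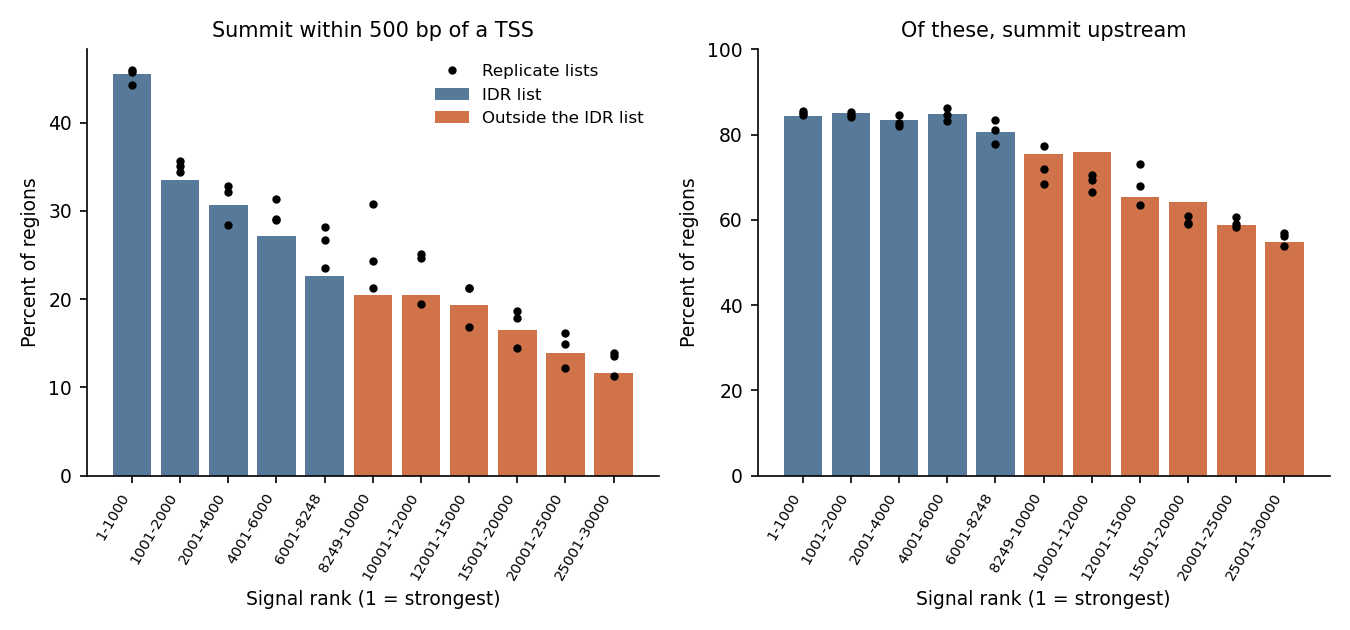
Percent of regions whose summit is at most 500 bp from such a TSS (left) and percent of these with the summit upstream (right) by class of signal rank (x axis, 1 is the strongest). Bars are the pooled list and points the 3 replicate lists ranked by their own signal, and regions past rank 8248 that overlap an IDR peak are left out. The upstream share goes from 80.6% to 75.5% across the border and to 54.8% in the last class.

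Members lay in transcribed parts of genes more often than IDR promoter peaks did. Of the 5 position classes 3 (60%) passed an adjusted p of 0.05 (two-sided Fisher's exact tests, Benjamini-Hochberg adjusted over the 5 classes). Summits in a 5′ UTR made up 24.96% of members and 13.4% of IDR promoter peaks (Fisher's exact test, adjusted p = 2.63e-27). Summits in a coding exon made up 3.77% and 0.692% (Fisher's exact test, adjusted p = 3.71e-15), and summits outside protein-coding genes 40.0% and 54.4% (adjusted p = 8.03e-27). The sets rebuilt from replicates gave 23.9% ± 1.94 against 14.3% ± 0.596 for 5′ UTRs and 5.05% ± 0.683 against 0.998% ± 0.171 for coding exons (SD, n = 3). Introns held 28.7% and 29.7%, and 3′ UTRs 2.60% and 1.79%, and neither passed (adjusted p = 0.41 and 0.0586 by Fisher's exact test). Of the bases within 500 bp of a TSS 25.8% are coding and 21.1% are 5′ UTR, so coding exons were a small share in both sets.

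Fewer members than IDR promoter peaks stood between closely spaced genes. A second protein-coding gene had its TSS within 500 bp of the summit at 366 of 3237 members (11.3%) and 807 of 2455 IDR promoter peaks (32.9%). The rebuilt sets gave 15.1% ± 1.61 and 32.2% ± 0.347 (SD, n = 3). This comparison was added after the data were seen and has no test.

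The DNA under members held more G and C than that under IDR promoter peaks, with no overlap between replicate-built sets. Mean GC content in the 201 bases around the summit was 38.8% in members, with 40.0%, 38.4% and 38.03% in the sets rebuilt from replicates (38.8% ± 1.04, SD, n = 3). It was 34.4% in IDR promoter peaks (rebuilt sets 35.2%, 34.6% and 34.9%, or 34.9% ± 0.287), 37.1% in weak distal regions and 39.8% in windows of the same length centred 100 bp upstream of 19252 TSS positions. Members upstream of the TSS had 37.6% and members downstream 41%. IDR promoter peaks upstream had 33.8% and those downstream 36.9%. GC content also went with the rank, from 36.3% in members ranked 8249 to 10000 to 39.3% in those ranked 25001 to 30000.

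Sequence motifs were searched on both strands within 100 bp of the summit. The letters were TATCGATA for the DRE, GGTCACAC for motif 1 and CATCNCTA for motif 7. They were CAGCTG for the E-box, TATAAA for the TATA box, TCAGTT for the initiator and GAGAGAG for the GAGA repeat. They were CACACACA for the CA repeat, AAAAAAAA for the A tract, ATGCAAAT for the POU octamer and ATTAATGAG for a short class IV POU site. They were TAATTA for the homeodomain core, AGGTCA for a nuclear receptor element and CAGGTAG for Zelda. Strings that share end letters, such as those of the nuclear receptor element and motif 1, can overlap. A match describes letters and is not a bound site.

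Between members and IDR promoter peaks 6 of 14 motifs (42.9%) passed an adjusted p of 0.05 (two-sided Fisher's exact tests, Benjamini-Hochberg adjusted over 14). Motif 7, a core promoter element, was in 2.72% of members and 6.03% of IDR promoter peaks (odds ratio 0.44, adjusted p = 6.71e-09 by Fisher's exact test). The rebuilt sets gave 3.22% ± 0.0969 and 5.56% ± 0.186 (SD, n = 3), without overlap. Motif 7 was in 3.26% of all promoter windows, and the sets rebuilt from replicates, at 3.25%, 3.11% and 3.30%, lay close to that value. The comparison with all promoter windows was not tested. With GC content in a logistic model the odds ratio of motif 7 was 0.44, and with the position of the summit 0.47, both past the threshold.

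The TATA box was in 29.0% of members and 39.8% of IDR promoter peaks (adjusted p = 4.07e-16 by Fisher's exact test), and the homeodomain core in 14.3% and 19.6% (adjusted p = 6.51e-07). Both strings consist of A and T, and with GC content in the model neither passed the threshold (odds ratios 0.92 and 0.93). The CA repeat was in 5.0% of members and 2.61% of peaks (Fisher's exact test, adjusted p = 1.32e-05), and it too did not pass with GC content in the model (odds ratio 1.29), nor among the members of higher signal (1.36) or without replicate 1 (1.46). The initiator was in 15.2% and 11.8% (Fisher's exact test, adjusted p = 0.000714) and was past the threshold with GC content too (odds ratio 1.27). The initiator share of members was close to the 15.4% of all promoter windows. It did not pass in the members covered in any pair of replicates, where its odds ratios were 1.07 to 1.20. The E-box was in 8.40% and 10.3% (adjusted p = 0.0424 by Fisher's exact test), and its odds ratio turned from 0.80 to 1.19 in windows of 50 bp on each side (adjusted p = 0.30). It was lower with GC content in the model (0.61) and in windows of 200 bp on each side (0.65), both past the threshold. It did not pass with the summit position in the model (0.83) or in the members covered in any pair of replicates (0.77 to 0.91).

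The sites that POU factors bind did not separate the sets. The octamer was in 2.50% of members and 2.53% of IDR promoter peaks (odds ratio 0.99, adjusted p = 1 by Fisher's exact test) and in 2.45% of all promoter windows. The short class IV POU site was in 6 members and 6 IDR promoter peaks, or 0.185% and 0.244%. The DRE was in 4.26% and 5.05% (Fisher's exact test, adjusted p = 0.22), against 6.21% of all promoter windows, and motif 1 was in 2.81% and 2.48% (adjusted p = 0.53). In windows of 200 bp on each side the DRE passed as rarer in members (odds ratio 0.65). GAGA repeats (5.41% and 4.48%), the A tract (17.5% and 15.5%), the nuclear receptor element (3.15% and 4.11%) and Zelda (0.896% and 0.611%) did not pass either, with adjusted p from Fisher's exact tests of 0.19, 0.10, 0.11 and 0.36. With GC content in the model the A tract passed as commoner (odds ratio 1.45) and GAGA repeats as rarer in members (odds ratio 0.70). GAGA repeats passed in the opposite direction, as commoner in members, in windows of 50 bp on each side (2.31) and with a TSS distance of 250 bp (1.68), so their direction depended on the setting. Within the members the DRE was commonest near the border, at 7.74% for ranks 8249 to 10000, and at 2.67% for ranks 25001 to 30000.

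**Figure D4:**
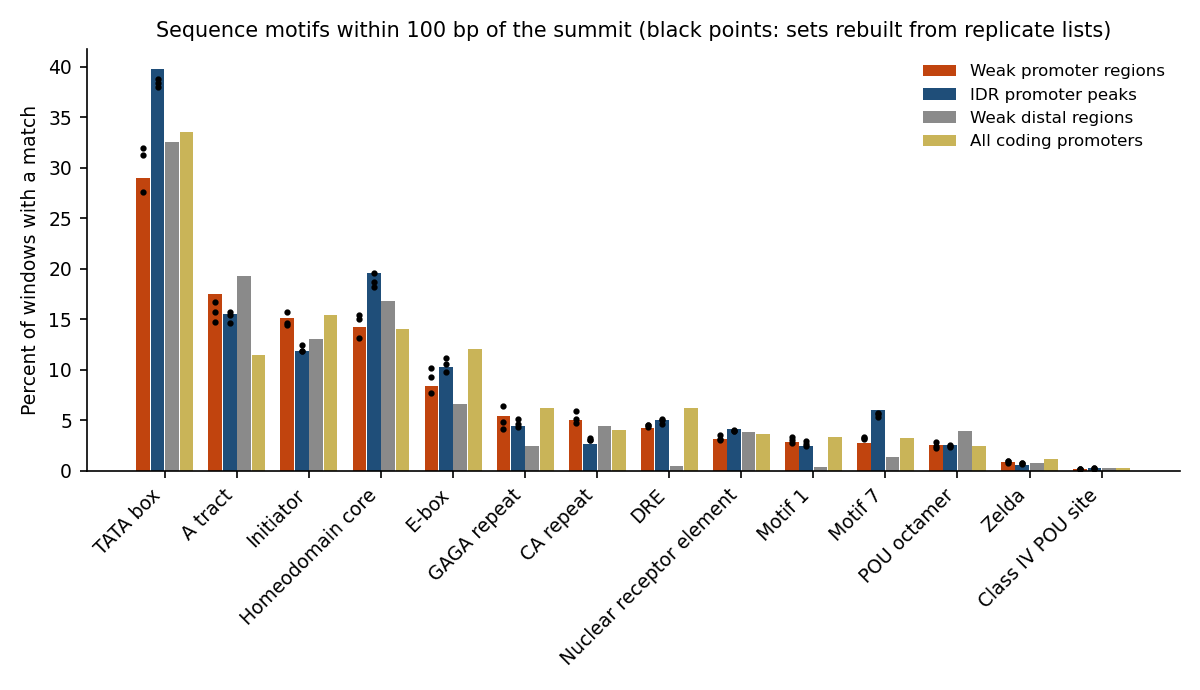
Percent of windows within 100 bp of the summit with a motif (y axis) for 14 motifs (x axis) in weak promoter regions, IDR promoter peaks, weak distal regions and all promoter windows. Black points are the 3 sets rebuilt from replicate lists. Motif 7 is in 2.72% of weak promoter regions and 6.03% of IDR promoter peaks, and the DRE in 4.26% of weak promoter regions and 0.440% of weak distal regions.

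Against weak distal regions 10 of 14 motifs (71.4%) passed. The DRE was in 4.26% of members and 0.440% of weak distal regions (odds ratio 10.1, adjusted p = 1.70e-57 by Fisher's exact test), and motif 1 in 2.81% and 0.330% (odds ratio 8.73, adjusted p = 9.87e-36). GAGA repeats were in 5.41% and 2.42% (Fisher's exact test, adjusted p = 6.13e-17). The octamer was rarer in members, 2.50% against 3.96% (Fisher's exact test, adjusted p = 9.04e-05). Motif 7, the E-box and the initiator were also commoner in members, and the TATA box, the homeodomain core and the A tract rarer. The initiator did not pass in the members covered in any pair of replicates, with odds ratios of 1.07 and 1.11, and 0.97 without replicate 1. The rule placed members at a TSS and weak distal regions away from one, so this comparison is also one of promoters with other DNA. With GC content in the model 6 motifs passed, and the E-box, the TATA box, the homeodomain core and the A tract did not.

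Of 2080 6-mers (reverse complements merged) 558 were commoner in members than in IDR promoter peaks (26.8%) and 319 rarer (15.3%), past an adjusted 0.05 in Fisher's exact tests. GC content moved with these calls: of the 558, 227 hold 4 letters that are G or C, 126 hold 5 and 23 hold 6. Within bins of 4% GC 32 and 63 6-mers passed a Mantel-Haenszel test, 27 and 41 of them in both tests. The largest ratios were those of CGAGCG with 8.77% of members and 3.26% of peaks, then CGCGCG and CGAGGC and CCGCGG and CGATCC and CCCGTC. Of these 6 only CGATCC passed within GC bins (4.76% and 1.91%, odds ratio 1.85). The lowest ratio was that of ACCCTA with 2.90% and 5.58%, followed by CTACGC and TGATCA and AGGGTA, of which TGATCA did not pass within GC bins. CTACGC also had the lowest odds ratio within GC bins (2.47% and 4.44%, odds ratio 0.42), then ACCCTG with 3.52% and 5.66% (odds ratio 0.49). Each was rarer in the weak than in the strong set of every replicate.

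Weak promoter regions touched 2744 of 13945 protein-coding genes (19.7%), nearly as many as the 2844 (20.4%) with an IDR promoter peak, where a gene counts when any of its TSSs lies within 500 bp of a summit. The sets shared 434 genes, 15.8% of the former and 15.3% of the latter. Sets rebuilt from replicates touched 25.5%, 20.7% and 24.3% of genes (23.5% ± 2.50, SD, n = 3). Genes with more TSSs were touched more often: 14.2% of genes with 1 TSS position, 27.3% with 2 and 52.3% with 3 or more had a member. Of 2477 genes nearest to a member, 1904 were nearest to 1, 448 to 2 and 125 to 3 or more.

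The lists of neuron identity factors and of developmental signalling genes had weak promoter regions at shares above that of all genes. The former name does not mean that its genes, such as abd-A, Antp, Dll and Kr, act only in neurons. Of 75 neuron identity transcription factors 40 had a member (53.3%) and 11 an IDR promoter peak (14.7%). The rebuilt sets gave 50.7%, 44.0% and 32.0% (42.2% ± 9.46, SD, n = 3) for weak regions, each above the value for all genes in the same replicate. Members covered in a pair of replicates were at fewer of these genes, 17.3%, 22.7% and 29.3% without replicate 1, 2 and 3, against 10.2%, 11.6% and 10.5% of all genes. The 1618 members of higher signal were at 26.7% of the list and 11.4% of all genes, and a TSS distance of 250 bp gave 34.7% and 13.6%. The lists were chosen with earlier results of these data known, and their counts were not tested. These genes had 1.97 TSS positions each, against 1.41 over all genes, and a median length of 15523 bp against 2166. Among genes with 1 TSS position 17 of 42 had a member (40.5%), against 14.2% over all genes, and per TSS position the values were 35.8% and 18.3%. The part of gene length in these shares was not tested.

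The members named for each list are the 2 of highest signal among those nearest to one of its genes. For neuron identity they were at vnd, a homeodomain factor of neuroblasts (signal 93.3, ranks 8347, 11085 and 8506), and oc, a homeodomain factor of the head and eye (signal 88.6, ranks 8343, 6711 and 19861). The list's median was 41.9, against 46.2 over all genes with a member, for the strongest member of each gene. The tagged gene acj6 had a member too, named here after its values were seen. Its summit lay 39 bp upstream of the TSS with a signal of 46.9, and it was covered in replicate 3, at rank 13141, and in neither other replicate. 

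Of 65 genes of the Notch, Wnt, Hedgehog, Dpp and EGF pathways 31 had a member (47.7%; rebuilt sets 61.5%, 40.0% and 46.2%) and 19 an IDR promoter peak (29.2%). The share for members was 27.7% with a TSS distance of 250 bp, with the nearest IDR region at least 1 kb away (15.9% of all genes) and among the members of higher signal, and 23.1% to 27.7% with a replicate left out. Those of highest signal were arm, the fly beta-catenin (85.9, ranks 19532, 11022 and 6981), and ptc, the Hedgehog receptor (81.2, covered in replicates 1 and 3). Among genes with 1 TSS position 14 of 38 had a member (36.8%), and per TSS position the share was 34.2%. A list of 63 genes named neuron-wide also holds sns, described above as a receptor of myoblast fusion, so the name does not cover each gene. Of the 63 genes 25 had a member (39.7%; rebuilt sets 36.5%, 49.2% and 36.5%) and 13 an IDR promoter peak (20.6%). With a replicate left out 20.6% to 27.0% had a member, and 23.8% had one of higher signal. Their share was 27.0% per TSS position, and 10 of 29 genes with 1 TSS position had a member (34.5%). Here sns (93.3) and Ddc, the dopa decarboxylase (81.9), were named. Of 49 ecdysone response genes 15 had a member (30.6%) and 20 an IDR promoter peak (40.8%), and the members led with Sgs3, a salivary glue protein (77.7), and Eip75B, a nuclear receptor (72.6). Their rebuilt sets ranged from 22.4% in replicate 2 to 46.9% in replicate 1, and leaving out a replicate gave 14.3% to 22.4%. These genes had 2.12 TSS positions each, and among those with 1 position 3 of 22 had a member (13.6%), close to the 14.2% of all genes.

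Ribosomal protein genes showed the opposite order. Of 89 cytoplasmic ribosomal protein genes 13 had a member (14.6%; rebuilt sets 25.8%, 15.7% and 23.6%) and 60 an IDR promoter peak (67.4%). The rule bars a member from overlapping an IDR peak, so these counts are tied. Of the 13 genes 12 had no IDR promoter peak. With either kind of region 80.9% of the list was touched, against 37.0% of all genes. The part of the exclusion in the order was not tested. RpL10 (90.8) and RpL17 (76.7) were named. Of 73 mitochondrial ribosomal protein genes 8 had a member (10.96%) and 28 an IDR promoter peak (38.4%). The named members were at mRpL19 (87.2) and mRpS5 (40.6).

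The other lists of widely used genes ranged from 12% to 23.6% for members in the pooled list. Members lay at 7 of 48 proteasome genes, such as Rpn2 (92.0) and Rpn10 (38.1), and IDR promoter peaks at 6. Of 51 translation factors 9 had a member, such as eIF4A (88.0) and eIF2A (77.7), and 14 a peak. Of 82 genes of general transcription and Mediator 13 had a member, such as Polr3D (84.5) and Trf2 (82.0), and 22 a peak. These 3 lists were below the share of all genes for members in the pooled list. The proteasome list varied between rebuilt sets (18.1% ± 8.67, SD, n = 3) and was above all genes in replicate 3. Members and IDR promoter peaks cannot overlap, so these counts are tied too. With either kind of region 43.1% of translation factors and 42.7% of the general transcription list were touched, against 37.0% of all genes. The proteasome list stood at 27.1%. The part of the exclusion in the lower member shares was not tested.

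Of 41 replication and repair genes 8 had a member (19.5%), such as CycB (69.8) and Cdk2 (56.5), and 13 a peak. The rebuilt sets gave 41.5%, 31.7% and 31.7%, against 25.5%, 20.7% and 24.3% of all genes. Of 40 splicing genes 6 had a member, such as tra2 (81.0) and Sf3b3 (55.1), and 12 a peak. Of 88 respiratory chain genes 16 had a member, such as ATPsynbeta (94.0) and ATPsynC (92.2), and 16 a peak. The chromatin list was above all genes in the pooled list, with 13 of 55 genes (23.6%), such as osa (85.3) and Clamp (74.3), and 16 with a peak. Its rebuilt sets gave 41.8%, 29.1% and 41.8%. Of 25 heat shock genes 3 had a member, with 2 regions at Hsc70-3 (88.5 and 62.4), and 6 a peak.

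Lists of genes used in few tissues were below the share of all genes for weak promoter regions and had few IDR promoter peaks. Of 122 cuticle protein genes 17 had a member (13.9%; rebuilt sets 15.6%, 18.9% and 14.8%) and none an IDR promoter peak. With a replicate left out 4.10% to 9.02% had a member. Cpr12A (88.7) and Cpr51A (79.2) were named. Of 60 odorant receptor genes 4 had a member (6.67%; rebuilt sets 5%, 5% and 6.67%) and none an IDR promoter peak. The region at Or67a (57.5) had ranks 15562, 15712 and 15092, and that at Or10a (32.5) ranks 22992, 28619 and 28729. Their summits lay 359 bp downstream and 496 bp upstream of the TSS. Of 120 gustatory and ionotropic receptor genes 11 had a member (9.17%), such as Ir94f (79.5) and Ir67c (71.2), and 1 an IDR promoter peak. Of 52 odorant-binding protein genes 7 had a member (13.5%), with the 2 named regions both at Obp56i (75.1 and 53.4), and 3 a peak. Of 37 secreted digestive enzyme genes 1 had a member, Jon66Ci (35.1), and 1 a peak. With a TSS distance of 250 bp 0% of odorant receptor, 1.67% of gustatory and ionotropic receptor and 5.77% of odorant-binding protein genes had a member. Cuticle protein genes then stood at 6.56%, digestive enzyme genes at 2.70% and all genes at 13.6%. With 1000 bp odorant receptor genes stood at 15% and all genes at 26.7%. Of the 19 lists 5 exceeded the share of all genes for weak promoter regions, and 11 did for IDR promoter peaks. For weak regions 6 of the 19 did so in all 3 rebuilt sets, namely the same 5 and the replication and repair list.

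**Figure D5:**
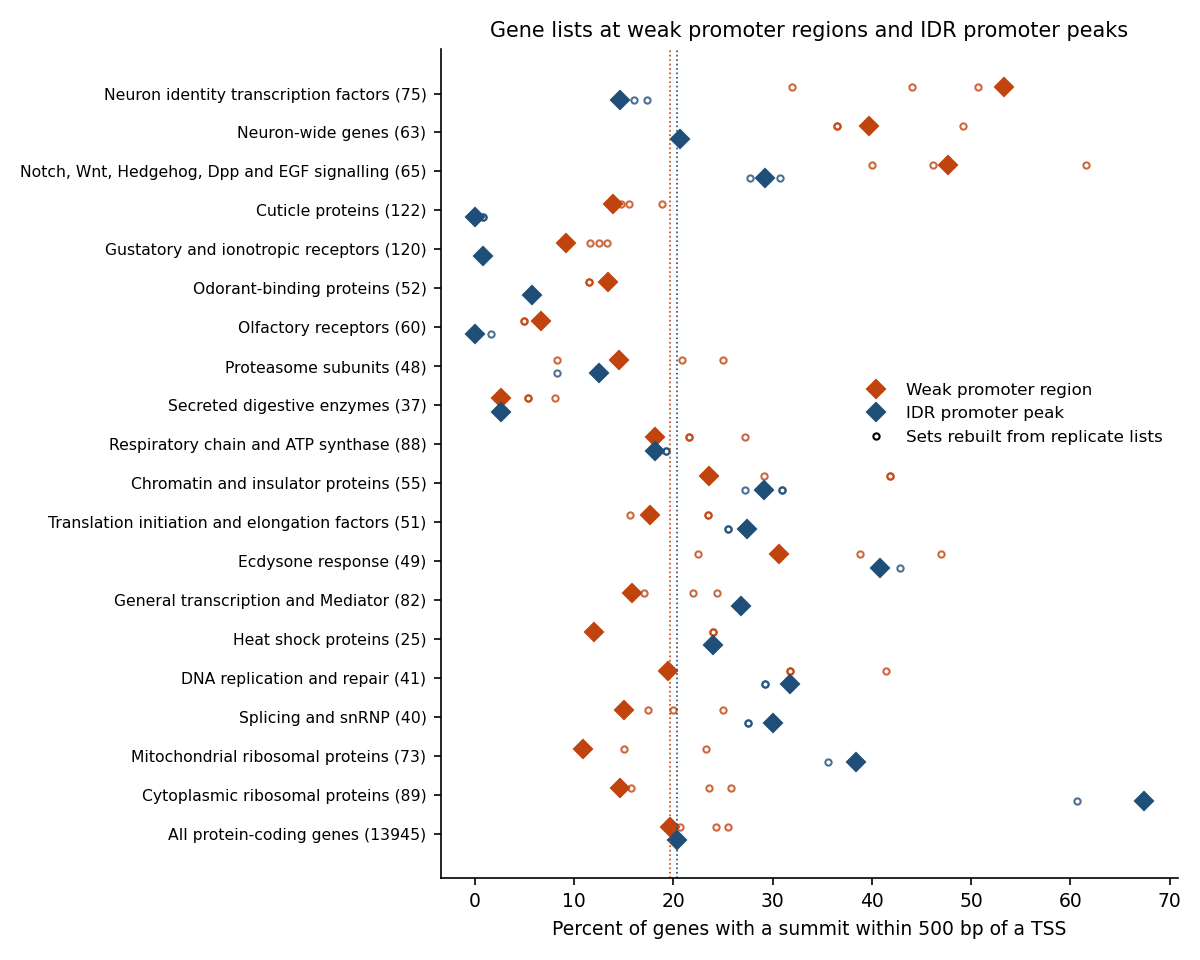
Percent of the genes of each list (number of genes in brackets) with a weak promoter region or an IDR promoter peak within 500 bp of a TSS (x axis). Diamonds are the deposited pooled and IDR lists, open points the sets rebuilt from 3 replicate lists, and dotted lines the values of all protein-coding genes. Neuron identity factors stand at 53.3% and 14.7%, and cytoplasmic ribosomal proteins at 14.6% and 67.4%.

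Chromosome 4, a small and largely heterochromatic chromosome, stood apart from the other arms. Of its 80 protein-coding genes 47 had a member (58.8%; rebuilt sets 57.5%, 60% and 62.5%) and 14 an IDR promoter peak (17.5%). With replicate 1, 2 or 3 left out 36.2%, 37.5% and 38.8% of these genes had a member, against 10.2%, 11.6% and 10.5% of all genes. The other arms ranged from 17.8% on 2L to 23.3% on X for members and from 18.3% to 21.4% for IDR promoter peaks. Chromosome 4 genes had 1.78 TSS positions each. Among those with 1 TSS position 22 of 42 had a member (52.4%), and per TSS position the share was 48.6%. Its strongest member was that at ATPsynbeta, with ranks 8318, 8290 and 11268. The X chromosome differed between replicates, at 23.1%, 30.3% and 24.8% of genes, and replicate 2 was the highest there while it was the lowest on 2L, 2R, 3L and 3R.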

How the data were processed

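Whole prepupae were profiled by ChIP-seq in 3 replicates. The authors deposited lists of regions in narrowPeak format, without read counts. Per the text files deposited beside the lists, the pooled list comes from the pooled alignments of 3 replicates with 1 control file. The signal of each region was given by the authors' peak caller and is not scaled between lists. The −log10 q values were deposited by the authors in the same lists, with a ceiling. For the aligner, the peak caller and the cut-off of the IDR list, names and settings were not given in the sources used. The 5 dm6 lists were used and the 5 dm3 lists were not.

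TSSs and gene models came from Ensembl's annotation of the Release 6 assembly (13945 protein-coding genes, 19252 TSS positions) and bases from NCBI's Release 6 sequence. Replicate-built sets apply the same rule to each replicate list, with overlap of the deposited IDR list deciding the set. Shares have exact Clopper-Pearson intervals. Comparisons used two-sided Fisher's exact tests with Benjamini-Hochberg adjustment, logistic regression with GC content or summit position, and Mantel-Haenszel tests over bins of 4% GC. The Fisher's and Mantel-Haenszel tests of 6-mers were checked with a 6-mer planted in genomic windows of weak distal regions. Tools were Python 3.11.15, numpy 2.4.6, pandas 2.3.3, scipy 1.17.1, statsmodels 0.14.6 and matplotlib 3.10.9.

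The members, gene lists and motifs were chosen with earlier results of these data known. Genes named are the 10 members of highest and 4 of lowest signal, the 8 with the best worst rank and 5 with the largest rank ratio among those covered in 3 lists, 2 for each gene list, and 6 on each side of the IDR border. Sequences were taken from arms other than 2R. For 6-mers those named are the 6 highest and 4 lowest ratios; those named within GC bins, the rank classes, the base footprint, the split by TSS number and the share near a second gene were chosen after values were seen.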

Additional observations from a re-analysis of the deposited data

How the results depend on the processing

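The difference in upstream share between weak promoter regions and IDR promoter peaks stayed between −13.2 and −21.1 points and past the threshold in every alternative run. Over 671 values under alternatives 454 kept their direction and call or size, 165 moved, 32 lost and 14 gained a call and 6 reversed. The alternative of 1 region per interval could not change the members, as no member interval repeated, and its values count among the 454. With a TSS distance of 250 bp there were 2034 members, 9.92% of weak regions, with 40.0% GC and at 13.6% of genes. With 1000 bp there were 4891, 23.9% of weak regions, 59.4% upstream and at 26.7% of genes. With the nearest IDR region at least 1 kb away 66.2% were upstream and 15.9% of genes had a member. The 1618 members of higher signal were 18.7% of such weak regions, 70.3% upstream, 59.7% covered in 3 lists and at 11.4% of genes, with 3 motifs past the threshold against IDR promoter peaks. With the outermost TSS of each gene the proximal share was 11.5% and the gene share 16.7%. Rebuilt sets were at 23.5% of genes, with 32.7% covered in all replicates. Each region of a rebuilt set is covered in its own list by construction, so the 32.7% is unlike the 34.8% of the members. Any overlap of 1 bp gave 47.3% covered in 3 lists. Genes with a single TSS, an alternative chosen after seeing the data, as was counting per TSS position, gave 14.2%.

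Leaving out each replicate kept members covered in both others. There were 1462 to 1672 of them, 16.4% to 18.5% of weak regions, 68.6% to 70.4% upstream, with 37.6% to 38.4% GC and at 10.2% to 11.6% of genes. Of members 45.2% to 51.7% were so covered. Motifs past the threshold numbered 3 to 4 against IDR promoter peaks and 5 to 8 against weak distal regions, and 6-mers 216 to 369 higher and 149 to 221 lower. The fewest calls came without replicate 1. With GC content 6 motifs passed against weak distal regions, and 32 higher and 63 lower 6-mers passed within GC bins.

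Of 6 reversals 5 were the intron class (1.98 points with 250 bp, 1.63 with the outermost TSS), the 3′ UTR class (−0.0617 points in the members of higher signal), the E-box in windows of 50 bp on each side (odds ratio 1.19) and GAGA repeats with GC content (0.70). The other was the initiator against weak distal regions without replicate 1 (odds ratio 0.97), which kept its direction but lost the call without the others (up to 1.11). The causes were not tested. The 3′ UTR class passed with 1000 bp (1.55 points, Fisher's exact test, adjusted p = 1.75e-05), with the nearest IDR region at least 1 kb away (0.93), with the outermost TSS (1.14) and in the rebuilt sets (1.04). The labels give 1 group, so no groups of samples could be paired. Weak and IDR-overlapping sets from the same replicate list form 3 pairs, whose upstream shares differed in 1 direction, for which the exact two-sided p is the smallest possible, 0.25. The lists give no read counts, so depth and its limits are unknown.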
